A study of Homo sapiens with 12 samples.

Results

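Genes that mark the floor plate of the midbrain were followed across the experiment, 8 of the 25718 genes in the deposited tables: FOXA1, FOXA2, LMX1A, CORIN, SPON1, NTN1, FERD3L and SLIT2. They were chosen by name, with earlier results of these data known. Where a gene had several RefSeq transcripts the transcript with the highest mean count stood for it. The floor plate is the strip of cells along the ventral midline of the neural tube. It is induced by Sonic hedgehog, patterns its neighbours, and guides axons with secreted proteins, and in the midbrain its progenitors give rise to dopaminergic neurons. FOXA1 and FOXA2 are forkhead transcription factors of the floor plate, LMX1A is a LIM homeodomain factor that directs dopaminergic fate, and FERD3L is a bHLH factor of the ventral midbrain. CORIN is a transmembrane serine protease used as a surface marker of floor plate cells. SPON1 (F-spondin), NTN1 (netrin 1) and SLIT2 are secreted, and NTN1 and SLIT2 guide axons through the DCC and UNC5 receptors and the ROBO receptors, respectively.

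The 12 bulk RNA libraries came from H9, a human embryonic stem cell line in wide use, with 3 replicates in each of 4 groups. A lentiviral vector, applied at a multiplicity of infection of 50, placed miR-10a and GFP or miR-10b and GFP under doxycycline control, and all groups were patterned towards ventral midbrain with 200 ng/ml SHH and 0.8 µM CT99021, a GSK3 inhibitor that activates WNT signalling. The miR-10a doxycycline and miR-10b doxycycline groups received the drug from day 11, the miR-10a control and miR-10b control groups were the same transduced cells without it, and all were harvested on day 14. No group lacked the vector and none received doxycycline without a miR-10 vector, so the drug and the microRNA cannot be told apart, and each vector was carried by its own culture, so vector and culture cannot be told apart either. The methods describe the differentiations as done in triplicate, but do not say whether these were separate transductions or days, and p-values measure the spread between these samples.

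Total counts were between 10545487 and 14165426, and every control library was deeper than every doxycycline library of its vector. At this depth a floor of 3 counts equals 0.212 to 0.284 CPM, the count scaled to a common library total. The miR-10b doxycycline replicate 2 differed most from its group, with a chi-square per degree of freedom of 3.17 and 4.11 against the other replicates, where the other 10 pairs had 1.22 to 1.93. The labelled precursors matched the groups. MIR10A had 711 to 731 CPM with doxycycline and 0.641 to 1.37 CPM without it in miR-10a cells. MIR10B had 2541 to 2662 CPM with doxycycline and 2.89 to 4.45 CPM without it in miR-10b cells. Without doxycycline each precursor was low but above its level in the control of the other vector, where MIR10A had 0 to 0.0794 CPM and MIR10B 0.482 to 1.04 CPM. SHH (555 to 636 CPM) and EN1 (87.2 to 111 CPM), a homeodomain factor of the midbrain and anterior hindbrain, were present in every library, whereas OTX2 and LMX1B, which have several transcripts, were under 1 CPM on the transcript used.

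Counting per transcript limited part of the group. Genes with 1 transcript made up 63.0% of genes and held 92.8% of all counts, and reads that fit more than 1 transcript seem not to have been counted. FOXA1, SPON1, NTN1 and FERD3L have 1 transcript each and are well measured. FOXA2 and LMX1A have 2 transcripts, CORIN and SLIT2 have 3, and their values may rest only on the part of each transcript that no other holds, so that a low count for them may not mean low expression. SLIT2 had 16 counts in all, with 0 to 5 per library summed over its 3 transcripts, and was too low to test. The other 7 passed the filter of a mean above 10 counts, and the lowest count of any of them in any library was 31 (LMX1A).

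The miR-10 seed is the part of the microRNA that pairs with targets, so the seed and the matches to it in these genes are shown. Mature hsa-miR-10a-5p (RefSeq, GRCh38.p14, chr17:48579904-48579926, minus strand) is given with its seed, bases 2 to 8, in capitals.
hsa-miR-10a-5p: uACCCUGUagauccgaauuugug
Among the 8 genes, NTN1 was the one with a match of 7 bases or more in the annotated 3′UTR (GENCODE 44 on GRCh37), a match to bases 2 to 8 starting at position 1450 of 4032, at chr17:9144735-9144741 on the plus strand. The match is in capitals.
NTN1 3′UTR site: gacctcctcacACAGGGTccattcctgtg
Matches of this kind (7mer-m8) were present in 14.3% of the 9260 genes that were tested and have a 3′UTR in the annotation, and matches of 7 bases or more of any kind in 21.1%. LMX1A, SPON1 and SLIT2 each held 1 match of 6 bases and NTN1 held 2, where 29.4% of the 9260 genes held such a match. FOXA1, FOXA2, CORIN and FERD3L held no match, although the FERD3L 3′UTR has only 80 bases. The longest annotated 3′UTR of each gene was searched. For CORIN this may not be the 3′UTR of NM_001278586, the transcript used for its values.

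Promoter windows from 250 bases before to 50 bases after the start of transcription were at hand in RefSeq (GRCh38.p14) for 5 of the 8 genes, FOXA1, LMX1A, CORIN, FERD3L and SLIT2. They were searched on both strands for the GLI core TGGGTGG, through which SHH signalling acts, the forkhead core TGTTTAC and the homeodomain core TAATTA. The windows of CORIN and FERD3L are printed because these 2 genes had the highest fold changes between the cultures without doxycycline. The CORIN window (chr4:47838018-47838317, minus strand) holds 1 GLI core, in capitals, at -96 from the start. No other window of these genes held any of the 3 motifs, including that of FERD3L (chr7:19145372-19145671, minus strand).
CORIN promoter: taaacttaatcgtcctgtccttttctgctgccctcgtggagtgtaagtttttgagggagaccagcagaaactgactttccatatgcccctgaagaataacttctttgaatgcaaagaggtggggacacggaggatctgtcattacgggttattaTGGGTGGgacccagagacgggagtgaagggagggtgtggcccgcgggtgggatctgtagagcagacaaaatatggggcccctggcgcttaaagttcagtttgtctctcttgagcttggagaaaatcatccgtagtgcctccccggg
FERD3L promoter: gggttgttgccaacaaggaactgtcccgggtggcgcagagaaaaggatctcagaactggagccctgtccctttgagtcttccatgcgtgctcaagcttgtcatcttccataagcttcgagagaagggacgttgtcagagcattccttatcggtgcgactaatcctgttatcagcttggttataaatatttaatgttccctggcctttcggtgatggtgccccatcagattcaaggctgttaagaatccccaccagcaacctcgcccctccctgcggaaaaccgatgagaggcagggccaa
Of all 35116 promoter windows, 9.19% held the GLI core, 3.42% the forkhead core and 4.84% the homeodomain core.

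The transcription factors are described first. FOXA1 (NM_004496, chr14:38058757-38064454, GRCh37) had 409, 407 and 411 CPM in miR-10a control replicates 1 to 3 and 413, 409 and 393 CPM in the miR-10a doxycycline replicates. In the miR-10b control replicates it had 597, 604 and 573 CPM, and in the miR-10b doxycycline replicates 576, 588 and 578 CPM. All miR-10b libraries lay above all miR-10a libraries, and the doxycycline and control libraries of each vector overlapped. The log2 fold change with doxycycline was -0.013 (95% interval -0.075 to 0.049) in miR-10a cells and -0.026 (-0.086 to 0.034) in miR-10b cells, with adjusted p = 0.932 and 0.634 (edgeR quasi-likelihood test). Intervals of log2 fold changes were taken from the standard error by a normal approximation.

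FOXA2 (NM_021784, chr20:22561636-22565210), a regulator of floor plate and dopaminergic identity, was counted at low levels. It had 6.11, 6.99 and 6.25 CPM in the miR-10a control replicates and 5.98, 6.87 and 6.83 CPM in the miR-10a doxycycline replicates. The miR-10b control replicates had 8.18, 7.19 and 9.24 CPM and the miR-10b doxycycline replicates 9.26, 9.61 and 9.56 CPM. The drug groups overlapped in miR-10a cells and were narrowly separate in miR-10b cells, where the log2 fold change of 0.21 (-0.019 to 0.44) did not pass the threshold (adjusted p = 0.246, edgeR).

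LMX1A (NM_177398, chr1:165171104-165325952) had 2.49, 2.68 and 3.61 CPM in the miR-10a control replicates and 4.71, 3.31 and 3.51 CPM in the miR-10a doxycycline replicates. The miR-10b control replicates had 5.40, 6.15 and 6.09 CPM and the miR-10b doxycycline replicates 8.08, 7.29 and 5.99 CPM. The means were higher with the drug for both vectors, but the libraries overlapped, and the average log2 fold change over both vectors was 0.33 ± 0.12 (SE, adjusted p = 0.0638, edgeR). An exact two-sided permutation test within vectors, whose smallest possible p is 0.005 over 400 arrangements, gave an unadjusted p = 0.045 for LMX1A.

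FERD3L (NM_152898, chr7:19184405-19185044), a short gene of 640 bases, was counted well on its single transcript. The miR-10a control replicates had 50.0, 50.2 and 49.9 CPM and the miR-10a doxycycline replicates 53.8, 50.6 and 54.0 CPM. The miR-10b control replicates had 101, 101 and 103 CPM and the miR-10b doxycycline replicates 112, 110 and 106 CPM. Every doxycycline library lay above every control library of its vector, by a small margin. The average log2 fold change of 0.090 ± 0.033 (SE) gave an exact permutation p of 0.005 within vectors and an adjusted p of 0.0650 with edgeR, so FERD3L did not pass the test across all genes.

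CORIN, the surface protease (gene on chr4:47596016-47840123), had counts on 2 of its 3 transcripts, which were also read separately. On NM_001278586, the transcript used, the miR-10a control replicates had 6.43, 8.05 and 6.81 CPM and the miR-10a doxycycline replicates 6.16, 5.22 and 6.26 CPM. The miR-10b control replicates had 20.7, 23.0 and 21.6 CPM and the miR-10b doxycycline replicates 12.4, 12.2 and 13.7 CPM. Every doxycycline library lay below every control library of the same vector in both cultures. The log2 fold change was -0.28 (-0.55 to -0.020) in miR-10a cells (adjusted p = 0.423) and -0.77 (-0.95 to -0.59) in miR-10b cells (adjusted p = 6.28e-08, edgeR), a level of 0.586 of the control. Without miR-10b doxycycline replicate 2 the latter was -0.74.

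The second CORIN transcript did not show that fall. NM_006587 had 4.18, 4.94 and 4.57 CPM in the miR-10a control replicates and 4.98, 4.80 and 3.89 CPM in the miR-10a doxycycline replicates. It had 14.4, 13.7 and 16.4 CPM in the miR-10b control replicates and 14.4, 12.1 and 12.2 CPM in the miR-10b doxycycline replicates. Its log2 fold change was -0.0015 (-0.32 to 0.32) in miR-10a cells and -0.20 (-0.40 to -0.0015) in miR-10b cells. The latter had an unadjusted p of 0.0559 and an adjusted p of 0.200 (edgeR, each transcript tested). Its interval, a normal approximation, leaves out 0 and is thus narrower than the test allows. The groups overlapped in both cultures. With the counts of all transcripts summed, the log2 fold change in miR-10b cells was -0.51 and its average over both vectors -0.34, past the threshold in both.

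Of the reads on these 2 CORIN transcripts, NM_001278586 held 60.8% ± 1.1 (SD, n = 3) in the miR-10a control and 56.3% ± 4.9 in the miR-10a doxycycline group. It held 59.6% ± 2.9 in the miR-10b control and 49.8% ± 3.3 in the miR-10b doxycycline group. Single libraries held between 107 and 506 CORIN reads, and the Wilson 95% intervals, which cover counting error only, ran from 41.0% to 51.9% for the lowest share and from 58.4% to 66.8% for the highest. The share was lower with doxycycline in every miR-10b library, an exact two-sided permutation test of 3 against 3 giving p = 0.1, the smallest it allows. In miR-10a cells the exact permutation test gave p = 0.3, and within vectors over both it gave p = 0.015.

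**Figure D1:**
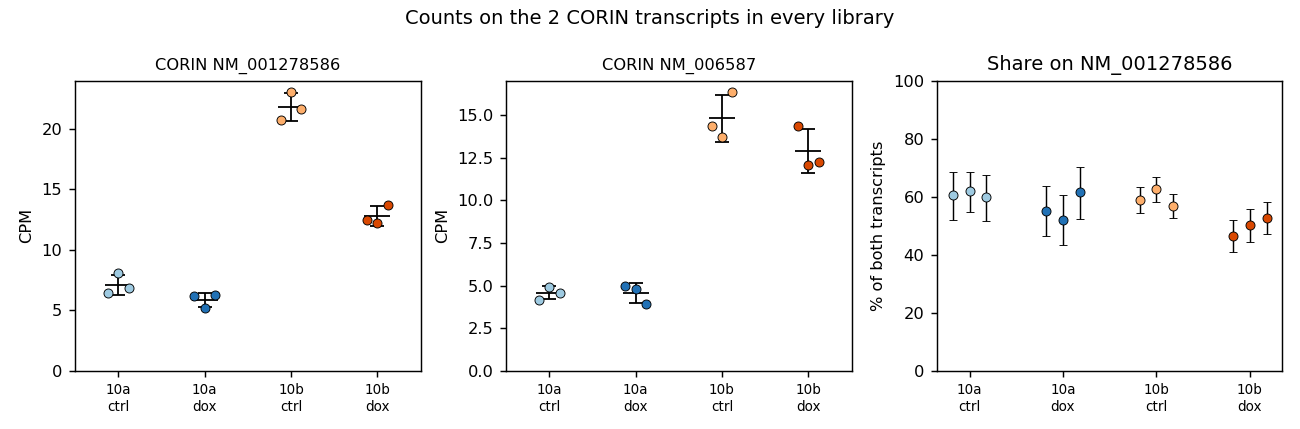
CPM of the CORIN transcripts NM_001278586 (left) and NM_006587 (middle) in each library of the 4 groups, with the mean and SD (n = 3), and the percentage of their reads that fell on NM_001278586 with its Wilson 95% interval (right). In miR-10b cells the left transcript is at 20.7 to 23.0 CPM without and 12.2 to 13.7 CPM with doxycycline, and the groups of the middle transcript overlap.

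SPON1 (NM_006108, chr11:13984270-14289679) is an extracellular matrix protein that promotes axon outgrowth. It was the gene of the group whose rise with doxycycline passed the threshold in both cultures. It had 809.8, 797 and 798 CPM in the miR-10a control replicates and 947, 936 and 925 CPM in the miR-10a doxycycline replicates. The miR-10b control replicates had 1172, 1138 and 1198 CPM and the miR-10b doxycycline replicates 1378, 1340.3 and 1410.4 CPM. No control library reached a doxycycline library of its vector. The log2 fold change was 0.22 (0.17 to 0.28) in miR-10a cells and 0.23 (0.18 to 0.29) in miR-10b cells, a rise of 1.17-fold and 1.18-fold, with adjusted p = 6.25e-06 and 1.63e-07 (edgeR). The difference between these effects was 0.011 (-0.069 to 0.092) on the log2 scale.

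NTN1 (NM_004822, chr17:8924827-9147317) had the highest counts of the group and was the one with the 7mer-m8 match printed above. The miR-10a control replicates had 1665, 1639 and 1603 CPM and the miR-10a doxycycline replicates 1694, 1673 and 1683 CPM. The miR-10b control replicates had 2322, 2328 and 2353 CPM and the miR-10b doxycycline replicates 2351, 2445 and 2376 CPM. The log2 fold change was 0.042 (-0.012 to 0.095) in miR-10a cells and 0.035 (-0.018 to 0.087) in miR-10b cells (adjusted p = 0.617 and 0.443, edgeR). The libraries with and without the drug overlapped in miR-10b cells and were narrowly separate in miR-10a cells. SLIT2 (chr4:20253528-20622184) had 0 to 5 counts per library on its best transcript, and no level can be given.

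**Figure D2:**
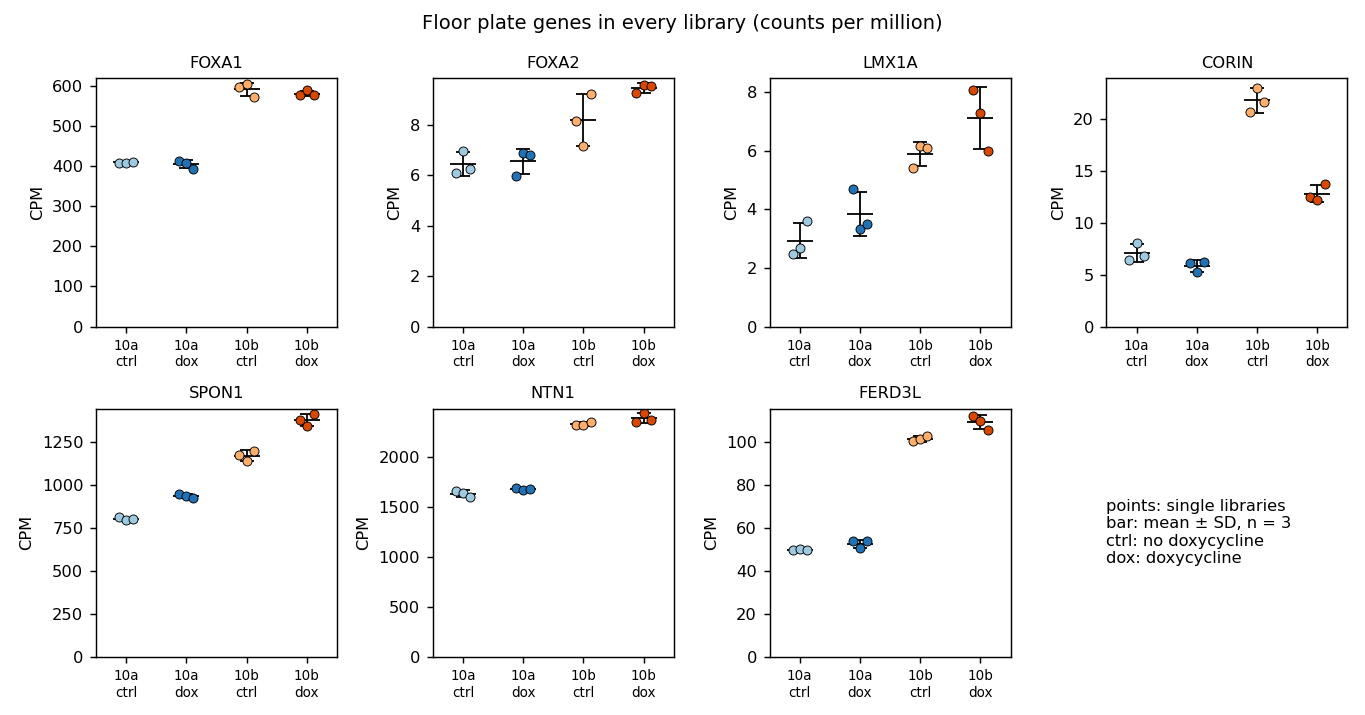
CPM of each measured floor plate gene in the 12 libraries (y axes start at 0), with the mean and SD of each group (n = 3). For all 7 genes the miR-10b control libraries (10b ctrl) lie above the miR-10a control libraries, and CORIN is the gene whose level is visibly lower with doxycycline (12.8 against 21.8 CPM in miR-10b cells).

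Levels can be compared between genes only per length, and only for the 4 genes with 1 transcript. In the miR-10a control, NTN1 had 275 ± 5.2 CPM per kilobase of transcript, SPON1 156 ± 1.4, FOXA1 121 ± 0.69 and FERD3L 78.2 ± 0.22 (SD, n = 3). In the miR-10b control the order was the same, with 392 ± 2.8, 228 ± 5.9, 175 ± 4.8 and 159 ± 2.1 CPM per kilobase. No neighbours in this order overlapped in either control group or in the miR-10a doxycycline group (283, 182, 119.9 and 82.5). In the miR-10b doxycycline group FOXA1 (172 ± 2.0) and FERD3L (171 ± 5.0) did not differ beyond their spread, below NTN1 (402) and SPON1 (268).

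The first comparison asked what inducing miR-10a changed. SPON1 was called higher, none was called lower and 6 of the 7 tested genes did not pass, where 1.21% of all 11451 tested genes were called in either direction. Of the 7 genes, 4 had doxycycline and control libraries that did not overlap (CORIN, SPON1, NTN1 and FERD3L), as did 18.2% of all tested genes. With miR-10b, SPON1 was called higher and CORIN lower and 5 did not pass, against 15.3% of all tested genes called, and 4 were without overlap (FOXA2, CORIN, SPON1 and FERD3L), against 28.7% of all tested genes. Averaged over both vectors, CORIN (-0.53 ± 0.081, SE, adjusted p = 1.17e-05) and SPON1 (0.23 ± 0.021, adjusted p = 1.91e-10, edgeR) were called, 2 of 7 against 13.9% of all tested genes. The median log2 fold change over both vectors was 0.090 for the 7 genes and 0.015 for all genes tested.

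Exact two-sided permutation tests within vectors on CPM gave p = 0.005, the smallest possible, for CORIN, SPON1 and FERD3L, 0.01 for NTN1, 0.045 for LMX1A, 0.125 for FOXA2 and 0.255 for FOXA1. The CORIN value is that of NM_001278586. The same permutation test gave p = 0.19 for NM_006587 and 0.01 for the 2 transcripts summed. These p-values are not adjusted, and the share of all tested genes that reach them was not computed. Over the 7 floor plate genes none passed when the effects of the vectors were tested against each other, where 1.96% of all genes did. CORIN had the largest difference, -0.49 ± 0.16 on the log2 scale (adjusted p = 0.131, edgeR), so the fall in miR-10b cells was not shown to differ from the value in miR-10a cells after adjustment. It was the one gene of the 7 with an unadjusted p under 0.05. With doxycycline the precursor entries had means of 2619 CPM (MIR10B in miR-10b cells) and 724 CPM (MIR10A in miR-10a cells). Mature miR-10 was not counted in these libraries, and the part of any difference in dose was not tested.

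**Figure D3:**
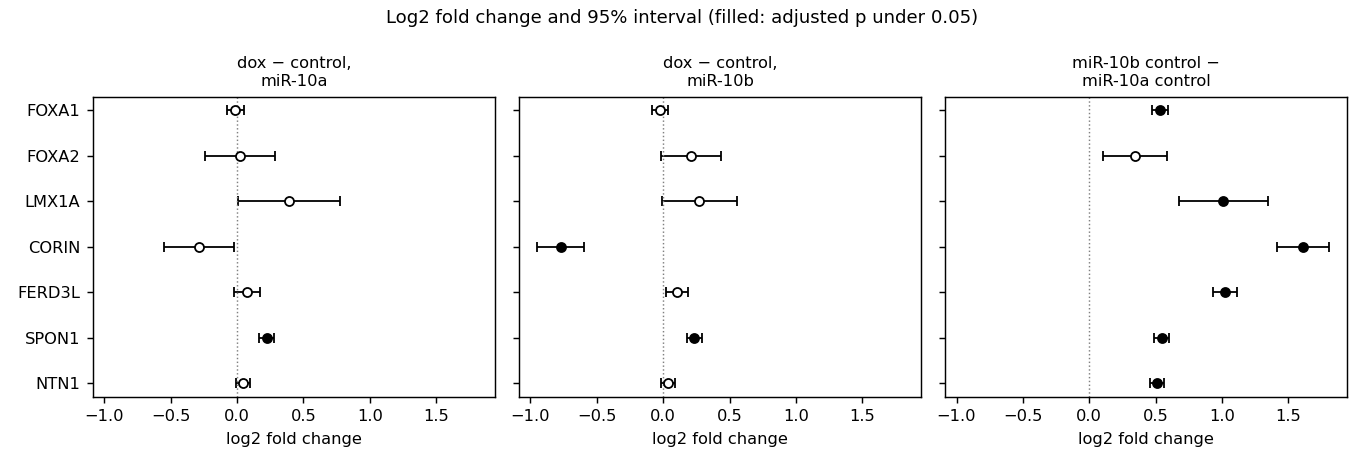
Log2 fold change of the 7 tested floor plate genes, with 95% intervals, for doxycycline against control with each vector and for the miR-10b control against the miR-10a control (filled points pass an adjusted p under 0.05). SPON1 is filled in both doxycycline panels and CORIN in the miR-10b panel, while between the controls all 7 points lie to the right of 0 and all but FOXA2 are filled.

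The controls of the 2 vectors also differed, without any doxycycline. The comparison of miR-10b control with miR-10a control called 6 of the 7 floor plate genes, all higher in the miR-10b culture, where 14.1% of all tested genes were called in either direction and 7.41% were called higher. CORIN was higher by 1.61 ± 0.10 (SE) on the log2 scale, 3.06-fold, and its other transcript by 1.69. FERD3L was 2.03-fold and LMX1A 2.01-fold higher (log2 fold changes 1.02 ± 0.046 and 1.01 ± 0.17). SPON1, FOXA1 and NTN1 were 1.46-fold, 1.45-fold and 1.43-fold higher, with log2 fold changes of 0.54 ± 0.029, 0.53 ± 0.031 and 0.51 ± 0.027. The adjusted p-values of these 6 genes were at most 3.4e-05 (edgeR).

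FOXA2 was 0.34 ± 0.12 higher on the log2 scale and just missed the threshold (adjusted p = 0.0593, edgeR). Without miR-10b control replicate 2 the value was 0.43 with adjusted p = 0.0278, and without miR-10b doxycycline replicate 2, which enters the common fit, 0.34 with adjusted p = 0.0493. In all 7 genes every miR-10b control library lay above every miR-10a control library, which held for 14.2% of all tested genes. MIR10B had a mean of 3.55 CPM in the miR-10b control and 0.814 CPM in the miR-10a control, MIR10A 0.0515 and 0.999 CPM, and the part of this expression without doxycycline in the result was not tested. The median log2 fold change of the 7 genes was 0.54 against -0.010 for all genes tested. As RNA was taken from bulk cultures, more cells of a kind and more RNA per cell cannot be told apart.

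With doxycycline the cultures were again apart, although each of these groups was compared with its control above. Between the miR-10b and miR-10a doxycycline groups all 7 genes were called higher with miR-10b, against 8.94% of all tested genes. The log2 differences were 1.13 for CORIN, 1.05 for FERD3L, 0.89 for LMX1A, 0.56 for SPON1, 0.53 for FOXA2 (adjusted p = 0.00211, edgeR), 0.52 for FOXA1 and 0.51 for NTN1. The summed level of the 8 genes was 2879 to 2949 CPM in the miR-10a control, 3072 to 3125 in the miR-10a doxycycline, 4208 to 4265 in the miR-10b control and 4447 to 4513 in the miR-10b doxycycline libraries. These sums are set mostly by NTN1 and SPON1.

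Other ventral and progenitor genes were followed in lists chosen by name, also with earlier results of these data known. Of all genes in these lists and those further below, only WNT1, UNC5C, SLIT1 and BARHL1 passed with doxycycline in miR-10a cells. Any other listed gene that passed over both vectors did not pass in miR-10a cells. SOX1, a transcription factor of the neuroepithelium that floor plate cells lack in the mouse, and its relative SOX3 were lower in the miR-10b control, where the floor plate genes were higher. SOX1 had 51.7, 50.6 and 54.2 CPM in the miR-10a control and 24.2, 21.0 and 21.3 CPM in the miR-10b control (log2 fold change -1.23 ± 0.063). SOX3 had 158, 161 and 151 CPM against 102, 89.8 and 86.5 CPM (-0.76 ± 0.046). Of the 9 neural progenitor markers, all tested, 4 were higher and 2 lower in the miR-10b control. The higher genes had small changes: HES1 (0.44), VIM (0.19), NES (0.17) and SOX2 (0.13). SOX2, another SOX factor, thus went the other way from SOX1 and SOX3, with means of 1067 CPM in the miR-10a control and 1170 CPM in the miR-10b control. With doxycycline over both vectors 3 of the 9 were lower, SOX3 (-0.26), HES5 (-0.14) and NES (-0.09).

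In the SHH pathway, which induces the floor plate, 11 of 13 genes were tested. Between the controls, 2 were higher in the miR-10b culture (DISP1, which releases SHH, by 0.31 and SHH by 0.16 on the log2 scale) and 2 lower (GLI2, a transcriptional effector, by -1.05 and GAS1, a co-receptor, by -0.36). Over both vectors doxycycline lowered GLI2 (-0.21) and GLI3 (-0.11), and raised none. In miR-10a cells neither passed (-0.090 and -0.081), and in miR-10b cells both did (-0.34 and -0.14). The basal plate factors that lie beside the floor plate were all tested (8 of 8). In the miR-10b control 4 were lower, among them NKX2-8 (-1.38), NKX2-2 (-0.75) and NKX6-1 (-0.28), and PHOX2A was higher (0.46). NKX2-8 rested on 48, 67 and 43 counts in the miR-10a control and 22, 20 and 19 in the miR-10b control. With doxycycline SIM1 and NKX6-2 (0.17 each) rose and NKX2-2 fell (-0.12).

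The midbrain dopaminergic lineage list had 11 of 16 genes tested. In the miR-10b control, 4 were higher (among them EN2 by 0.49, RSPO2 by 0.39 and WNT5A by 0.37 on the log2 scale) and none lower. With doxycycline over both vectors, 4 fell, among them WNT1 (-0.55), a WNT ligand of the midbrain, SLC18A2 (-0.26), the vesicular monoamine transporter, and MSX1 (-0.21), while PITX3 (0.40), a factor of dopaminergic neurons, rose. TH and DDC, enzymes of dopamine synthesis with several transcripts, were under 1 CPM. LMX1A and FOXA2 are also expressed in a diencephalic lineage that gives subthalamic neurons, for which 5 of 5 marker genes were tested. BARHL1 and BARHL2 fell with doxycycline (-0.69 and -0.23). Between the controls NKX2-1 was higher (0.94) and BARHL1, BARHL2 and DBX1 lower (-0.57, -0.50 and -0.31) in the miR-10b culture. NKX2-1 has 2 transcripts and rested on few counts, 13, 15 and 9 in the miR-10a control and 21, 22 and 29 in the miR-10b control.

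**Figure D4:**
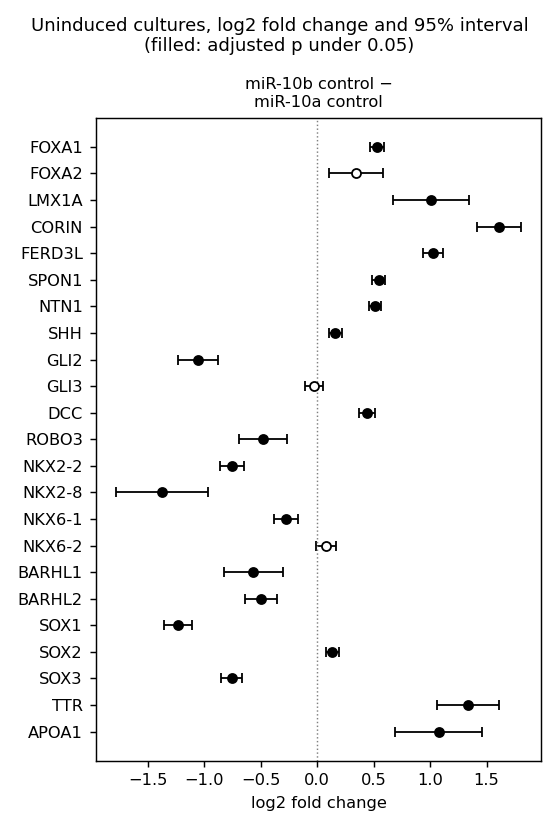
Log2 fold change between the cultures without doxycycline (miR-10b control over miR-10a control) with 95% intervals, for the floor plate genes at the top, then SHH pathway, guidance receptor, basal plate, diencephalic, progenitor and endoderm genes (filled points pass an adjusted p under 0.05). The floor plate genes lie to the right of 0, CORIN farthest at 1.61, and SOX1 (-1.23), GLI2 (-1.05) and NKX2-8 (-1.38) to the left.

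Receptors for the secreted members were read beside them. Of 11 netrin and slit receptors 6 were tested, and with doxycycline over both vectors 3 were higher and none lower: UNC5C (0.53), UNC5A (0.26) and DCC (0.09). The average for DCC joins opposite signs, -0.045 in miR-10a cells, where it did not pass, and 0.23 in miR-10b cells. DCC, the attractive netrin receptor, also passed when the effects of the vectors were tested against each other (0.28, adjusted p = 0.000737, edgeR). Between the controls DCC was higher (0.44) and ROBO3 lower (-0.48) in the miR-10b culture. Of 10 paralogues of the floor plate genes 4 were tested, and NTNG2 rose (0.20) and SLIT1 fell (-0.15) with doxycycline. NTN4 and SLIT1 were higher in the miR-10b control (0.39 and 0.36). Of the 2 natriuretic peptide genes whose products CORIN can cleave, NPPB was tested and fell with doxycycline over both vectors (-1.08 ± 0.18, SE, adjusted p = 5.01e-05, edgeR) from means of 1.82 and 2.71 CPM in the miR-10a and miR-10b controls.

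FOXA1 and FOXA2 also mark endoderm, so the endoderm list was read beside them. Of its 11 genes 3 were tested, and TTR (1.33) and APOA1 (1.07) were higher in the miR-10b control, at 9.43 and 4.16 CPM. TTR fell with doxycycline over both vectors (-0.37). The summed level of the list was 6.21 to 7.80 CPM in the miR-10a control, 6.07 to 6.95 in the miR-10a doxycycline, 14.9 to 16.1 in the miR-10b control and 10.1 to 11.2 in the miR-10b doxycycline libraries. SOX17, GATA4, GATA6, AFP and APOA2, with 1 transcript each, were under 1 CPM, with a single SOX17 read in all 12 libraries. HNF4A and EOMES were under 1 CPM too, but have several transcripts, so that this may not mean low expression. The part of endoderm cells in the FOXA1 and FOXA2 differences was not tested.

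Genes of other regions and tissues were read in the same way. Between the controls 1 of 5 tested forebrain genes was higher (RAX, 1.14) and 1 lower (EMX2, -0.90), both on few counts. RAX had 9, 7 and 8 counts in the miR-10a control and 17, 21 and 16 in the miR-10b control. Its mean of 11.7 counts passed the filter only through the miR-10b libraries. EMX2 had 18, 26 and 23 counts in the miR-10a control and 9, 19 and 8 in the miR-10b control. Of 4 tested hindbrain genes 2 were higher, among them GBX2 (0.52), and HOXA2 was lower (-1.08). HOXA2 had 39, 34 and 32 counts in the miR-10a control and 20, 17 and 13 in the miR-10b control. None of the 9 tested forebrain and hindbrain genes passed with doxycycline over both vectors. The 3 tested neuron markers, the 2 tested notochord and mesoderm markers and the 1 tested dorsal marker did not pass with doxycycline or between the controls. Of 5 pluripotency genes 1 was tested, DPPA4, which was lower in the miR-10b control (-0.43), and POU5F1, NANOG, ZFP42 and TDGF1 were under 1 CPM, of which ZFP42 alone has 1 transcript.

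The genes whose pattern was most like each floor plate gene were taken as the 3 with the highest Pearson r of log2(CPM + 1) over the 12 samples. These samples fall into 2 sets by vector, which share most of the pattern, so r is a description. Among those most like NTN1 were FERD3L (r = 0.996) and CMTM8 (0.994), and FERD3L was most like NTN1, ADAMTS9 (0.996) and RASGRF2 (0.995). Among those most like FOXA1 were FNDC1 (0.994) and TWIST1 (0.990). FNDC1 had mean levels of 54.9 and 58.4 CPM in the miR-10a control and doxycycline groups and 117 and 109 CPM in the miR-10b groups.

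The genes most like SPON1 were GPD1L (0.987), RGS2 (0.984) and PLCL1 (0.983). GPD1L had a mean of 33.2 CPM in the miR-10a control and 40.7 with doxycycline, and 75.2 and 113 CPM in miR-10b cells. Those most like CORIN were IRS1 (0.991), FAM174B (0.988) and SAMD5 (0.981), and SAMD5 had a mean of 68.0 CPM in the miR-10a control and 57.7 with doxycycline, and 121 and 90.0 CPM in miR-10b cells. LMX1A was most like MPP7 (0.962), PTPRD (0.958) and DMRTA1 (0.956), and FOXA2 most like DNAJC22 (0.945), DRC1 (0.937) and ATF6 (0.936), with lower r in these 2 low-count genes.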

How the data were processed

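RNA from 12 samples was sequenced as single-end 50-bp reads, which the authors mapped to hg19 and quantified to RefSeq (per the labels STAR and featureCounts of Subread, versions not given in the sources used here). The methods name poly-A NuGEN Ovation libraries and RNeasy kits, the labels miRNeasy and Illumina kits. The deposited values are raw read counts per transcript, unnormalized. Of 51799 rows, 3698 repeats were dropped, leaving 48101 transcripts. Genes with a mean above 10 counts were tested with edgeR 4.0.16 (R 4.3.3; quasi-likelihood, total count as library size, 4 group means in 1 fit, Benjamini-Hochberg over all 11451 genes, threshold 0.05), after a check on simulated counts. Single values were compared by exact permutation (Python 3.11.15, scipy 1.17.1). Each vector's controls serve both the doxycycline and the vector comparisons. Alternatives were TMM factors, DESeq2 1.42.0, other count filters, summed or separate transcripts, single-comparison fits, a replicate block and leaving out each library.

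The genes and lists were chosen with earlier results of these data known. Values are given for the 8 floor plate genes, for at most about 4 of the genes per list that passed over both vectors or between the controls, for defining markers, for the precursors, and for the 3 most alike genes. The separate transcripts and the comparison of the doxycycline groups were added after seeing the data, and so was the naming of further list genes. Some genes of the lists and of the most alike genes are not reported here.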

Additional observations from a re-analysis of the deposited data

How the results depend on the processing

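No call of a floor plate gene was lost with TMM factors, DESeq2, other filters, summed transcripts, single-comparison fits, the replicate block or any left-out library. CORIN passed with doxycycline on NM_001278586 but not on NM_006587 (over both vectors -0.10, adjusted p = 0.566, edgeR). Of 663 values of floor plate genes under alternatives, 640 stayed as they were, 2 lost and 8 gained the threshold, and 13 changed sign, all with a library left out and none past the threshold. The 663 values include the comparison of the doxycycline groups, read against that of the controls, which is not an alternative of processing. Among the gains, FOXA2 in that comparison was one (adjusted p = 0.00211, edgeR). Ranges over left-out libraries were -0.028 to 0.0081 for FOXA1 and -0.017 to 0.087 for FOXA2 in miR-10a cells. For the difference between vectors they were -0.036 to 0.0024 for FOXA1, -0.29 to 0.051 for LMX1A, -0.0083 to 0.030 for SPON1, -0.024 to 0.0071 for NTN1 and -0.0013 to 0.052 for FERD3L. Over both vectors 2 to 4 of the 7 genes passed: LMX1A also passed without miR-10a doxycycline replicate 2, miR-10a control replicate 3 or miR-10b doxycycline replicate 3, and FERD3L without the first or last of these.

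Counts over all genes depended more on the fit. In miR-10a cells 139 genes passed, 275 with only the groups compared, and 75 to 268 with a library left out (75, 84 and 81 without miR-10a doxycycline replicate 1 and control replicates 1 and 3, 268 without miR-10b doxycycline replicate 2). The difference between vectors gave 224, 343 without the filter (more genes tested), and 140 to 339 (140 without miR-10a control replicate 2, 339 without miR-10b doxycycline replicate 3). The ranges were 1215 to 1792 for miR-10b, 1202 to 1718 over both vectors and 1231 to 1990 between the controls. Over both vectors 878 of 1590 genes were higher, 665 of 1517 with TMM and 464 of 1207 with DESeq2, and in miR-10b cells 937 of 1756, 766 of 1729 and 498 of 1306. SPON1 stayed higher and CORIN lower under each (0.21 and -0.54 over both vectors with DESeq2). Same-numbered replicates did not deviate together over all tested genes (12 pairs, r -0.047 to 0.019), so no pairing by number was seen. This does not show that same-numbered samples came from separate differentiations, since a small shared deviation could be hidden by counting noise. The replicate block gave 166, 1826, 1680, 274 and 1689 genes for miR-10a, miR-10b, both vectors, their difference and the controls.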
